A study of Mus musculus with 816 samples.

Results

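The potassium, sodium and calcium channel genes of mouse microglia were taken as every row of the culture table and the mouse table whose symbol begins with Kcn, Scn, Cacn, Trpm, Trpv or Hcn followed by a letter or a digit. The rule took no measured value into account. It found 161 of the 45581 rows for cultures and 155 of the 29858 rows for mice, and the 6 rows listed for cultures alone were Kcnab3os, Kcnd3os, Kcnmb4os1, Kcnmb4os2, Kcnq1ot1 and Scn2a1. A mean above 5 CPM (the deposited unit, tags of a gene scaled to the library total) in at least 1 group of cultures or mice was reached by 60 members, called the named members here, and the other 101 did not reach it. The prefixes also bring in genes that are no channels, such as Scnm1, a splicing factor named for its effect on a sodium channel gene, and Kcnq1ot1, a long non-coding RNA.

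The series holds 816 samples, 784 cultures in 98 stimulus and time groups and 32 mice. The cultures were primary neonatal mouse microglia from a commercial source, kept in 96-well plates and stimulated 4 days after plating. Untreated cultures were available at 24 h (40 cultures) and at 72 h (25 cultures), and none was labelled 4 h, so that the 9 groups of 4 h were compared with the untreated cultures of 24 h and time cannot be told apart from stimulus there. LPS, the bacterial endotoxin, was given at 0.0001 µg/µl (LPS_hi) or 0.00001 µg/µl (LPS_lo), P3C is the lipopeptide Pam3Cys-Ser-(Lys)4, and IC is polyIC. The mice were C57BL/6 and their microglia were isolated with CD11b beads from perfused whole brains. Female mice of 2 months received PBS (4 mice) or 2 mg/kg LPS (4 mice) 4 h earlier, and male naive mice were 2 months (11 mice) or 22 months old (13 mice), with both ages in each of the 2 series of libraries. The deposited names of the series 1 mice, and of the PBS and LPS mice, hold the word Vehicle, and those of series 2 do not. A vehicle given in series 1 cannot be told apart from the series. CD11b is shared with other myeloid cells, so the isolated cells need not all be microglia.

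Library depth, read off the size of the smallest steps in the values, was 1.003 to 38.2 M counts (M for mega) in cultures and 2.362 to 7.78 M counts in mice. The summed level of 11 microglial markers was 1080 to 15600 CPM in cultures and 33800 to 70300 CPM in mice, with 9 and 11 of the 11 above 5 CPM. The 8 astrocyte markers summed to 0 to 149 CPM in cultures (median 18.6 CPM) and to 421 to 2130 CPM in mice. The 10 neuronal markers summed to 0 to 237 CPM in cultures (median 9.75 CPM) and to 33.4 to 174 CPM in mice, and the 6 neutrophil markers to 0 to 671 CPM and 66.1 to 3750 CPM. Of the 6, only Mmp9 had a mean above 5 CPM in cultures (14.1 CPM). All 6 had one in mice, with S100a9 highest at 405 CPM. In these bulk samples, fewer cells of a type and less RNA per cell cannot be told apart. Replicates were separate wells of the same labelled condition, and p-values measure the spread between these wells, which may be partly technical.

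Ion channels set the membrane potential of a cell and admit calcium. In microglia the resting potential is carried mainly by inward rectifier and two-pore-domain potassium channels, while calcium-activated and voltage-gated potassium channels are known to accompany activated states and to sustain calcium entry by keeping the membrane polarised. Voltage-gated channels consist of a pore-forming subunit with auxiliary subunits that set its surface level and gating, and TRPM and TRPV channels are cation channels opened by temperature, osmotic stress, lipids or metabolites.

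The promoter windows of 4 members are shown because Kcnj2 and Kcnn4 were the members called in the most culture conditions, Kcnk13 fell in LPS cultures and in LPS-injected mice, and Cacnb3 had the largest rise at 4 h. Each is the 250 bases before an annotated start on the plus strand in RefSeq annotation of GRCm38.p6, at chr11:111065914-111066163 for Kcnj2, chr7:24370013-24370262 for Kcnn4, chr12:99964249-99964498 for Kcnk13 and chr15:98634517-98634766 for Cacnb3, and Cacnb3 has another window in the table. The windows of Kcnn4, Kcnk13 and Cacnb3 lie within the span given below for the gene, and that of Kcnj2 ends at the base before the gene. Capitals mark the E-box CACGTG, which is the same on both strands.
Kcnj2: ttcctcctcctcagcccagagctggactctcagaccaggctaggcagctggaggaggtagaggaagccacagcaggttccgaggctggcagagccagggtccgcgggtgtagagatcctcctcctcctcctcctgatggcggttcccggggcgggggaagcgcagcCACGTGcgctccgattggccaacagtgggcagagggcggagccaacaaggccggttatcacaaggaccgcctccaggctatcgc
Kcnn4: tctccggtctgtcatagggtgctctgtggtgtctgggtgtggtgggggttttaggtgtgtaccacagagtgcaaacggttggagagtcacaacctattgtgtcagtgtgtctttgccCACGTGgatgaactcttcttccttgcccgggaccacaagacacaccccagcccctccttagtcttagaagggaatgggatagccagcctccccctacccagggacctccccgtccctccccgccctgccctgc
Kcnk13: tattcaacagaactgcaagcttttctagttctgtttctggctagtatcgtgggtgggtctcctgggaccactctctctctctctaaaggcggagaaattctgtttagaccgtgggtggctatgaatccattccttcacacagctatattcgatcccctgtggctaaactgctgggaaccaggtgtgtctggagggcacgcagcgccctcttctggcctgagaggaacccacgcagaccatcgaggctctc
Cacnb3: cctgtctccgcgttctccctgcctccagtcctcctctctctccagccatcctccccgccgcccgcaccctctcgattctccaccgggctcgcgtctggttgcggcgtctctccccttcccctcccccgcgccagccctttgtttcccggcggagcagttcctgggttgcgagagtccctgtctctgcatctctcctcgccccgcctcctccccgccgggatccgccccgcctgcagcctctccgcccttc
The E-box was in the windows of Kcnj2 and Kcnn4 and in 6.04% of all 32536 windows of this length. The cyclic AMP response half-site TGACG (17.9% of windows) and the AP-1 site TGANTCA (6.73%) were in none of these 4 windows, and the loose NF-kB-like pattern GGGNNNNNCC, which 46.0% of windows hold, matched all of them but that of Kcnk13. All patterns were searched on both strands and their matches may overlap. Of the named members, 40 had a window, and among their 55 windows 5 held the E-box, 8 the half-site, 1 the AP-1 site and 35 the NF-kB-like pattern. A match is a run of letters and not a bound site, and the 3′-end libraries measured no promoter.

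Across the culture stimuli, the channel genes called at 24 h were mostly lower, with the inward rectifier Kcnj2, the calcium-activated channel Kcnn4 and the calcium channel pore Cacna1a leading. A call in cultures required a Benjamini-Hochberg adjusted p under 0.05 in limma across all genes and a change of at least 1 on the log2(CPM + 1) scale, which understates changes of low genes. At 24 h, 37 members were tested in 44 comparisons with untreated cultures, and 100 of the 1628 tests (6.14%) were called lower against 4.48% of the tests over all genes, while 22 (1.35%) were called higher against 2.04% over all genes. The lower calls fell on 15 members and the higher calls on 12. The median change was -0.04 over members and -0.02 over all genes, so the middle of the list did not move apart from the rest. All comparisons of a time point share the same untreated cultures.

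At 72 h, 52 members were tested in 42 comparisons, with 50 of 2184 tests (2.29%) called higher beside 2.31% over all genes and 32 (1.47%) called lower beside 2.44%. At 4 h, 26 members were tested in 9 comparisons, with 10 of 234 tests (4.27%) called higher beside 3.53% and 34 (14.5%) called lower beside 12.2%. Where an agent was added to LPS and compared with LPS alone, 6 of 820 tests (0.732%) were higher beside 0.612% over all genes and 3 (0.366%) lower beside 0.508%. Between the doses of LPS, 1 of 89 tests (1.12%) was higher at LPS_hi beside 0.321% and 1 was lower beside 1.04%. The member shares thus stayed near those of all genes in these sets.

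**Figure D1:**
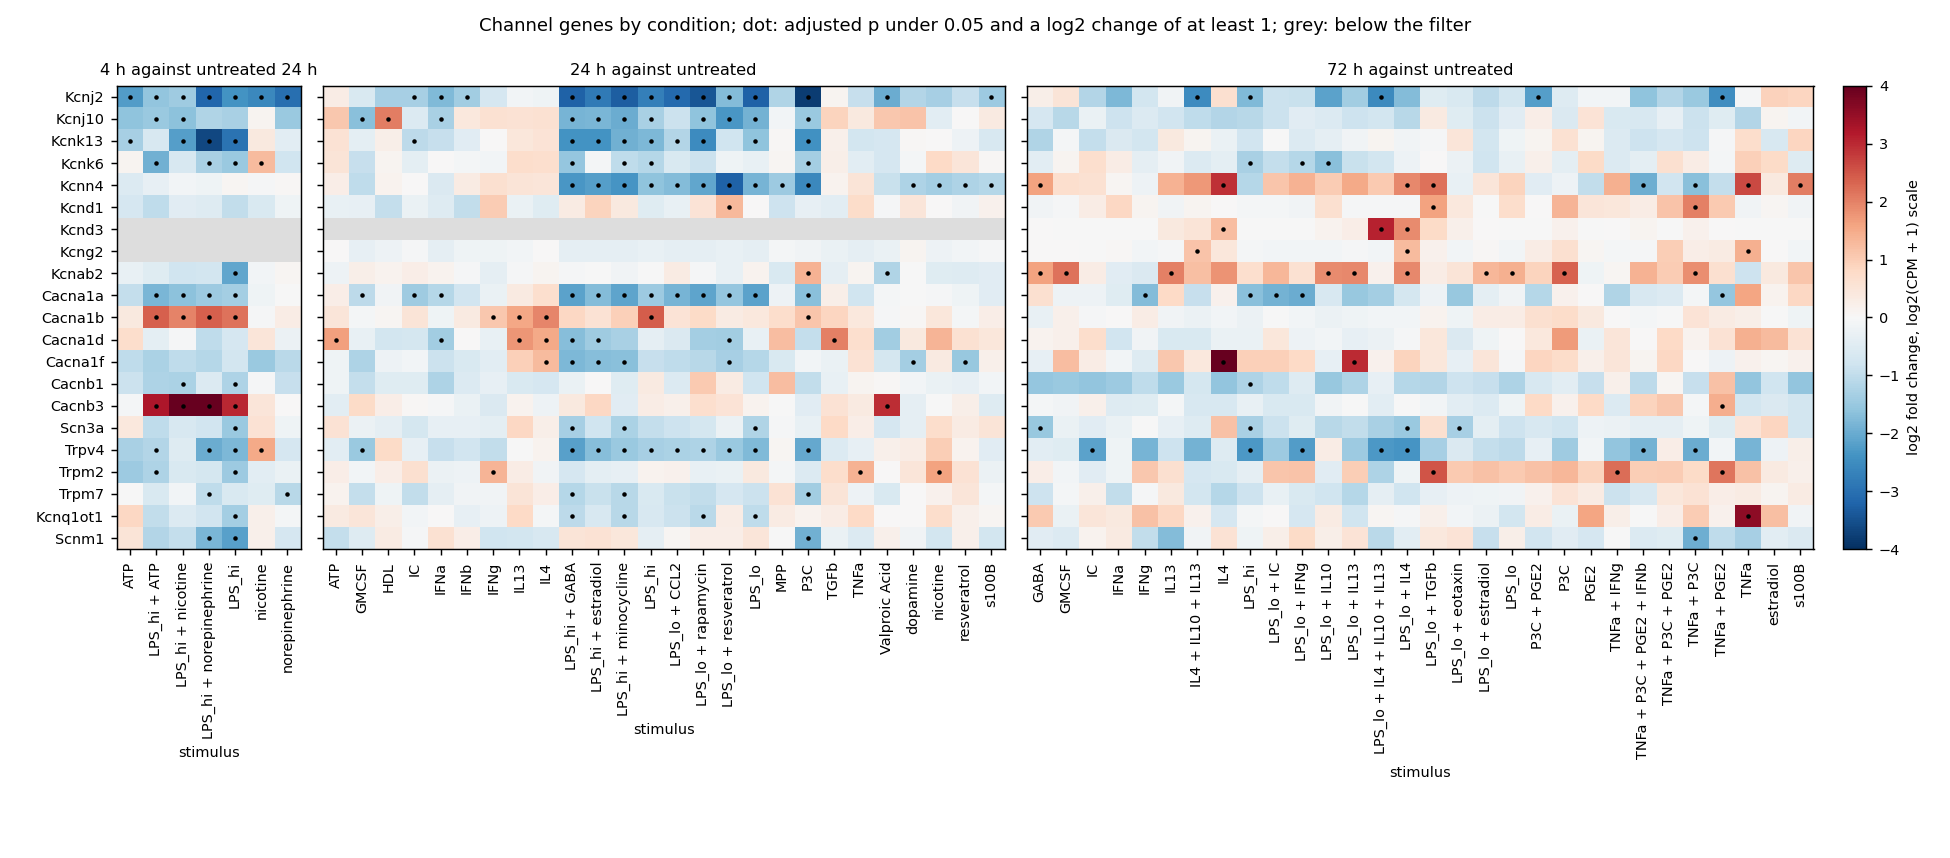
Change of 21 channel genes (rows) in the culture conditions with at least 1 call among members (columns: 7 at 4 h, 26 at 24 h and 30 at 72 h), as log2 fold change of CPM + 1 against untreated cultures, coloured from -4 to 4. Dots mark calls by limma and grey cells were below the filter. Kcnj2, Kcnk13, Cacna1a and Trpv4 are lower across the LPS conditions of 4 h and 24 h, Kcnab2 is higher at 72 h, and the rises of Cacnb3 stand at 4 h.

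Within single conditions of 24 h, P3C had 10 of 37 members lower (27%) beside 23.3% of all genes, and LPS_hi had 7 of 37 lower (18.9%) beside 12.8%. The 7 under LPS_hi were Kcnj2, Kcnj10, Kcnk13, Kcnk6, Kcnn4, Cacna1a and Trpv4, and P3C lowered these and, among others, Trpm7 and Scnm1. At 4 h, LPS_hi had 11 of 26 members lower (42.3%) beside 32.3% of all genes. Scaling by median-of-ratios moved the median of all genes by 0.138 under LPS_hi and 0.232 under P3C at 24 h and by 0.319 under LPS_hi at 4 h. The microglial marker sum was 4360 to 10400 CPM in untreated cultures of 24 h, 1280 to 3090 CPM under LPS_hi, 2300 to 4020 CPM under P3C and 2690 to 3850 CPM under LPS_hi at 4 h, and its part in these falls was not tested.

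Kcnj2 encodes an inward rectifier that holds the membrane near the potassium equilibrium potential, and lies at chr11:111066164-111076825 (GRCm38.p6). Untreated cultures of 24 h ranged from 5.51 to 196 CPM with a median of 78.0 CPM. P3C cultures ranged from 0.653 to 10.9 CPM (median 5.96 CPM, n = 6) and LPS_lo cultures from 1.77 to 24.6 CPM (median 3.64 CPM, n = 7). LPS_hi cultures lay between 1.52 and 27.1 CPM with a median of 13.5 CPM (n = 18). The ranges met only at the lower end of the untreated cultures. The mean fell from 79.3 ± 35.5 CPM (SD, n = 40) to 5.75 ± 4.74 CPM under P3C, a change of -3.81 ± 0.50 (SE, limma, adjusted p = 1e-11), and to 12.8 ± 8.48 CPM under LPS_hi (-2.72 ± 0.33, limma, adjusted p = 2.1e-14).

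Kcnj2 was called lower in 14 of the 44 conditions of 24 h and higher in none, and 12 of the falls remained with culture plate as a term. These included every condition of 24 h that contained LPS. The type I interferons also lowered it, IFNa to a median of 19.6 CPM (5.28 to 80.7 CPM, n = 8, -1.76, limma, adjusted p = 0.000943) and IFNb by 1.39 on the log2 scale (limma, adjusted p = 0.00628). Under s100B the fitted value of -1.44 came with a mean of 81.5 ± 70.9 CPM, close to the untreated mean, since 2 of 9 cultures were at 0. At 4 h Kcnj2 was lower in 7 of 9 conditions, among them norepinephrine alone (median 13.2 CPM, 0.623 to 30.2 CPM, n = 7, -3.02 ± 0.48, limma, adjusted p = 2.16e-06) and nicotine alone (-2.58, limma, adjusted p = 5.31e-05). At 72 h it was lower in 5 conditions, 2 of which remained with plate as a term, and the untreated plate means there ran from 18.9 to 132 CPM.

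**Figure D2:**
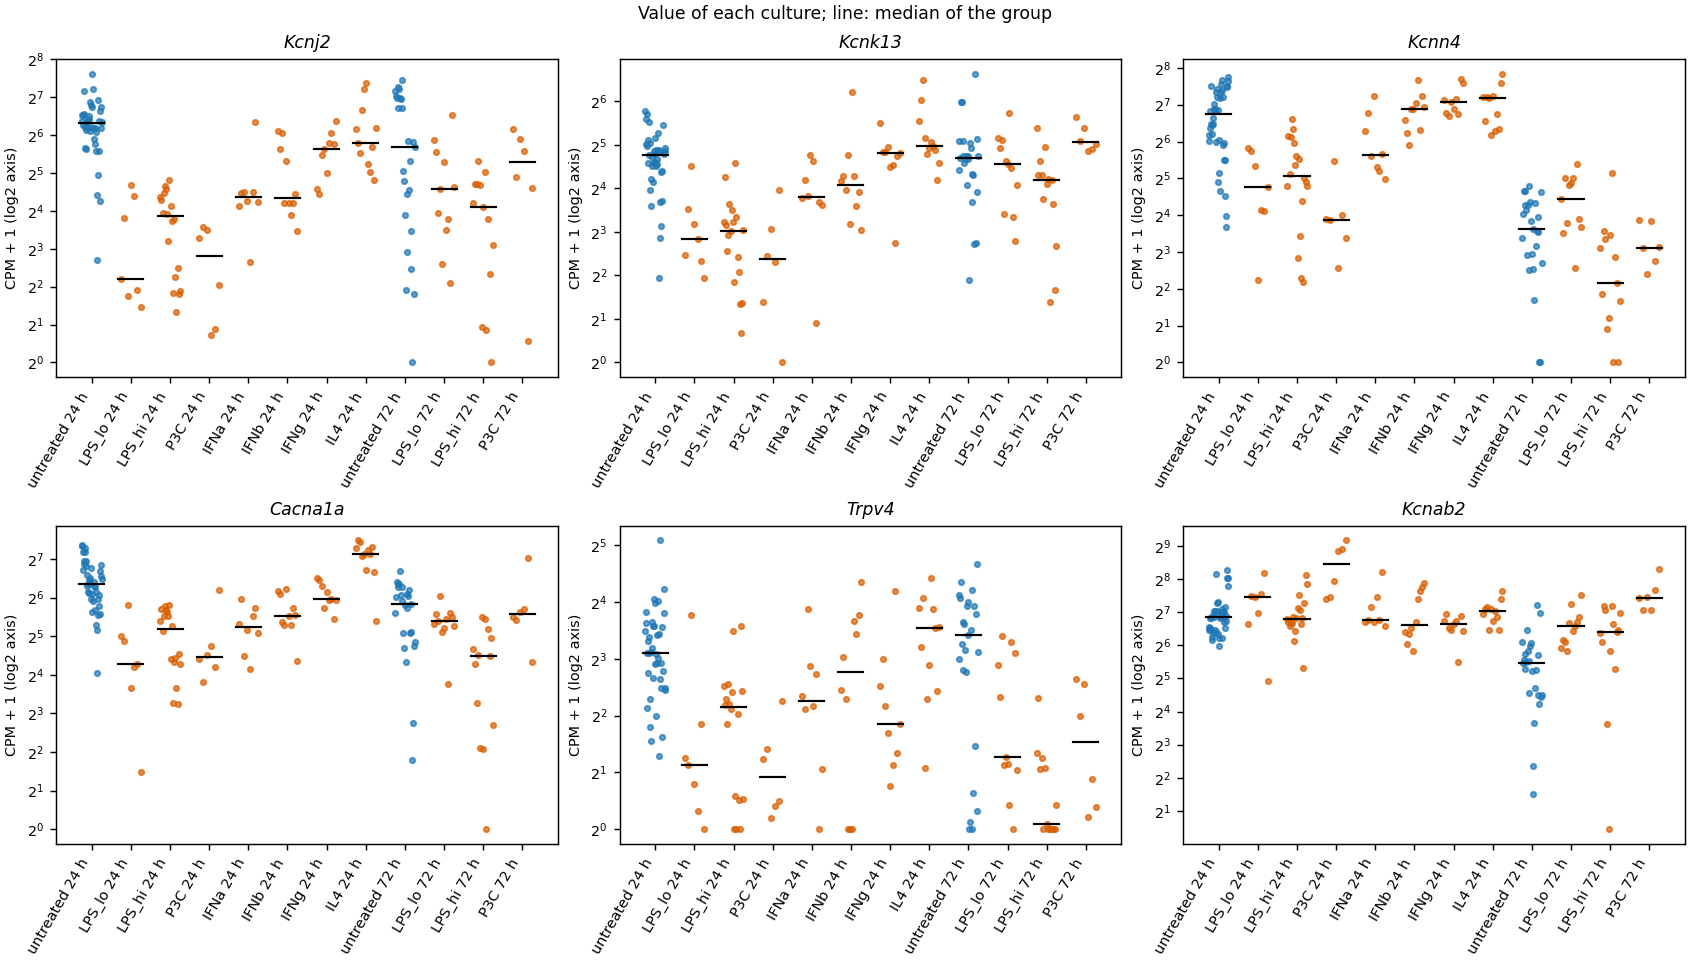
CPM + 1 on a log2 axis of Kcnj2, Kcnk13, Kcnn4, Cacna1a, Trpv4 and Kcnab2 in single cultures (points) of untreated and stimulated groups at 24 h and 72 h, with the group median as a line. Kcnj2 medians go from 78.0 CPM untreated to 3.64 CPM under LPS_lo at 24 h, while Kcnab2 is higher under P3C at both times.

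Kcnj10, an inward rectifier best known in glia, had an untreated median of 8.37 CPM at 24 h (0 to 54.5 CPM), with plate means from 1.01 to 36 CPM. It was lower in 10 conditions of 24 h, of which LPS_hi gave a mean of 3.47 ± 3.52 CPM (n = 18, -1.30, limma, adjusted p = 0.00286). HDL was the condition in which it rose, with 18.5 to 53.0 CPM (median 30.8 CPM, n = 8, 2.05, limma, adjusted p = 0.0107), within the untreated range. Of the 11 calls at 24 h, 7 remained with plate as a term. The astrocyte marker sum had plate medians from 13.8 to 29.1 CPM in untreated cultures of 24 h. Of the 8 markers, 2 had a mean above 5 CPM there, with Aldoc highest at 11.6 CPM, and 0 were absent from all cultures. Plate means reached 0.996 CPM for Gfap, 0.634 CPM for Slc1a2 and 0.0462 CPM for Aqp4. The part of astrocytes in the Kcnj10 values was not tested.

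Of the two-pore-domain channels, which carry background potassium current, Kcnk13 and Kcnk6 were the members detected most. Kcnk13, at chr12:99963149-100062682, carries the THIK-1 current of resting microglia. It had an untreated median of 26.4 CPM (2.86 to 54.1 CPM) and LPS_hi cultures of 24 h a median of 7.17 CPM (0.602 to 23 CPM). The ranges overlapped, and the fall was -1.81 ± 0.27 (limma, adjusted p = 4.69e-10). At 4 h LPS_hi gave a median of 1.42 CPM (0.351 to 6.55 CPM, n = 7, -2.96, limma, adjusted p = 3.08e-12), and LPS_hi with norepinephrine gave 0 to 2.66 CPM (median 1.28 CPM, n = 8), below every untreated culture of 24 h (-3.65, limma, adjusted p = 1.26e-17). ATP given with LPS_hi left a median of 18.6 CPM (2.23 to 31.1 CPM, n = 6), which was higher than LPS_hi alone by 2.32 ± 0.47 (limma, adjusted p = 0.000446). Kcnk13 was lower in 9 conditions of 24 h, 8 of them also with plate as a term, and in none of 72 h.

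Kcnk6, at chr7:29221928-29232522, encodes the TWIK-2 channel. Untreated cultures of 24 h had a median of 14.5 CPM (3.83 to 47.2 CPM) and LPS_hi cultures one of 7.5 CPM (0.390 to 15.9 CPM), a fall by 1.13 on the log2 scale (limma, adjusted p = 0.000158). At 72 h the mean was 20.4 ± 11.1 CPM untreated and 9.52 ± 7.62 CPM under LPS_hi (-1.31, limma, adjusted p = 0.000521). Nicotine at 4 h was the condition in which it rose, to 20.8 to 60.2 CPM (median 36.9 CPM, n = 8, 1.25, limma, adjusted p = 0.00805).

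Kcnn4, at chr7:24369826-24385212, encodes the intermediate-conductance calcium-activated potassium channel KCa3.1. It was lower in 14 conditions of 24 h, all 14 also with plate as a term, and its direction differed at 72 h. Untreated cultures of 24 h had a median of 106 CPM (11.9 to 216 CPM, plate means 30.7 to 194 CPM). LPS_lo with resveratrol gave a median of 11.4 CPM (0.369 to 34.5 CPM, n = 8, -3.23, limma, adjusted p = 1.01e-14). P3C gave 13.7 CPM (4.89 to 43.5 CPM, n = 6, -2.59, limma, adjusted p = 2.85e-08) and LPS_hi 32.6 CPM (3.56 to 97.3 CPM, -1.60 ± 0.27, limma, adjusted p = 7.23e-08). These groups lay in the lower part of the untreated range. MPP, dopamine, nicotine, resveratrol and s100B alone also lowered Kcnn4.

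Kcnn4 at 72 h started from a lower level, 0 to 26.6 CPM in untreated cultures with a median of 11.4 CPM. The 3 TNFa cultures held 26.8, 80.5 and 119 CPM, all above the untreated range (2.63, limma, adjusted p = 0.00724). The 3 IL4 cultures held 70.5, 71.0 and 93.2 CPM (2.91, limma, adjusted p = 0.0164), and this call was lost in each of the 3 fits that left out 1 IL4 culture and with plate as a term. LPS_lo with TGFb gave 31.2 to 88.0 CPM (median 41.4 CPM, n = 8), also above every untreated culture (2.17, limma, adjusted p = 0.00111). In all, 6 conditions were higher and 2 lower, the latter TNFa + P3C and TNFa + P3C + PGE2 + IFNb. Of these 8 calls, 5 remained with plate and 2 with library pool as a term. LPS_hi was below LPS_lo at 72 h, 6.84 against 21.2 CPM (-2.01, limma, adjusted p = 0.0134), a call that was lost with plate as a term. At 4 h LPS_hi cultures had a mean of 109 ± 67.5 CPM, close to the untreated 107 ± 59.1 CPM of 24 h, and Kcnn4 was called in no condition of 4 h.

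Among the voltage-gated potassium channel subunits, Kcnd3, a pore of the fast transient current, was listed at 0 in all 40 untreated cultures of 24 h and averaged 0.00728 CPM in those of 72 h. The rises were in cultures with IL4 at 72 h, and Kcnd3 passed the filter through such groups. The IL4 cultures held 0, 2.09 and 3.36 CPM (1.24, limma, adjusted p = 0.00456), and the call remained in 1 of the 3 fits that left out an IL4 culture. LPS_lo with IL4 gave a median of 4.19 CPM (0 to 5.26 CPM, n = 5, 1.88, limma, adjusted p = 5e-11), and LPS_lo with IL4, IL10 and IL13 one of 7.98 CPM (0.726 to 43.8 CPM, n = 5, 3.08, limma, adjusted p = 3.5e-26). IL4 with IL10 and IL13 but without LPS had 1 of 6 cultures above 0, at 7.68 CPM. The 11 LPS_lo cultures of 72 h were all at 0, so the rise over LPS_lo alone has the same values behind it.

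Kcnd1, another pore of that current at chrX:7823759-7838278, was at 2.48 CPM in untreated cultures and was higher with LPS_lo + resveratrol at 24 h (1.30, limma, adjusted p = 0.0293) and with TNFa + P3C (2.00, limma, adjusted p = 0.00034) and LPS_lo + TGFb (1.61, limma, adjusted p = 0.005) at 72 h. The TNFa + P3C group ran from 0 to 62.8 CPM with a median of 0.768 CPM (n = 7) and the LPS_lo + TGFb group from 0 to 54.4 CPM with a median of 1.27 CPM (n = 8), beside 0 to 4.07 CPM in untreated cultures of 72 h, so that a single culture held most of each group's sum. No untreated culture of 72 h was above 5 CPM, so Kcnd1 passed the filter there through stimulated groups. Its p-values at 72 h are conditioned on that. Kcng2, a subunit that modifies other voltage-gated pores, was higher in 3 conditions of 72 h, namely IL4 + IL10 + IL13 (1.15), LPS_lo + IL4 (1.28) and TNFa (1.43), where the highest TNFa culture had 14.6 CPM and the highest LPS_lo + IL4 culture 14 CPM, and untreated cultures reached 3.60 CPM. LPS_lo + IL4 also exceeded LPS_lo alone. Since untreated cultures of 72 h reached no more than 3.60 CPM, Kcng2 passed the filter through stimulated groups where it was high. Its calls are conditioned on that. The TNFa call was lost in 1 of the 3 fits that left out a TNFa culture (0.20). Kcna3, the Kv1.3 channel often studied in microglia, was above 0 in 14 cultures and above 5 CPM in 3, with a highest value of 14.2 CPM, and stayed below the limit for a named member.

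Kcnab2 encodes a cytoplasmic beta subunit of voltage-gated potassium channels and was detected in every untreated culture of 24 h, with a median of 114 CPM (61.6 to 308 CPM). P3C cultures of 24 h had 167 to 575 CPM (median 349 CPM, n = 6, 1.40, limma, adjusted p = 3.09e-07), a call that was lost with plate as a term (0.84). Valproic Acid gave 26.3 to 115 CPM (median 43.0 CPM, -1.20, limma, adjusted p = 7.79e-05). LPS_hi at 4 h gave 9.48 to 57.4 CPM (median 30.7 CPM, n = 7), below every untreated culture of 24 h (-2.09, limma, adjusted p = 1.39e-06).

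Kcnab2 was the member with the most rises at 72 h, 10 of 42 conditions, of which 9 remained with plate and 3 with library pool as a term. Untreated cultures had a median of 43.0 CPM (1.88 to 148 CPM). P3C cultures had one of 172 CPM (133 to 311 CPM, 2.36, limma, adjusted p = 0.000363), overlapping the untreated group at its upper end, and GMCSF a mean of 163 ± 39.4 CPM (2.18, limma, adjusted p = 0.00115). The other 8 were GABA, IL13, TNFa + P3C, LPS_lo alone and LPS_lo with IL10, IL13, IL4 or estradiol.

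Of the calcium channel pores, Cacna1a (chr8:84338631-84640251, the P/Q-type pore) was detected throughout and Cacna1b, Cacna1d and Cacna1f were low. Cacna1a had an untreated median of 81.3 CPM at 24 h (15.6 to 164 CPM, plate means 54.9 to 149 CPM). LPS_hi cultures had one of 35.6 CPM (8.43 to 55.3 CPM) and P3C cultures one of 21 CPM (13.2 to 72.7 CPM). The fall under LPS_lo, to a mean of 23.3 ± 17 CPM, was -2.14 on the log2 scale (limma, adjusted p = 1.98e-08), and that under LPS_hi -1.45 (limma, adjusted p = 1.76e-08). Cacna1a was lower in 12 conditions of 24 h, including every one with LPS, in 4 of 4 h and in 5 of 72 h, and 10, 4 and 5 of these remained with plate as a term. Under LPS_hi at 72 h the mean was 20.0 ± 15.3 CPM beside 52.4 ± 26.1 CPM untreated (-1.66, limma, adjusted p = 0.0012).

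Cacna1b, the N-type pore, moved the other way. Untreated cultures of 24 h held 0 to 2.97 CPM (median 0.408 CPM), LPS_lo cultures averaged 1.86 ± 2.30 CPM, and LPS_hi cultures held 0 to 34.6 CPM (median 13.9 CPM, n = 18). No untreated culture of 24 h exceeded 2.97 CPM, so that Cacna1b passed the filter of the 4 h and 24 h fits through stimulated groups where it was high, and its p-values are conditioned on that. The rise under LPS_hi was 2.43 ± 0.26 (limma, adjusted p = 5.96e-18), and LPS_hi exceeded LPS_lo by 2.01 ± 0.40 (limma, adjusted p = 0.00146). With estradiol added, LPS_hi cultures averaged 2.50 ± 4.00 CPM (n = 7), lower than LPS_hi alone (-1.84, limma, adjusted p = 0.0027), and with GABA 3.50 ± 4.88 CPM (n = 8, -1.61, limma, adjusted p = 0.0123). At 4 h LPS_hi gave 4.35 to 7.49 CPM (median 5.77 CPM, n = 7), above every untreated culture of 24 h (2.17, limma, adjusted p = 7.44e-10), and at 72 h LPS_hi averaged 0.0647 CPM. IL4 (1.39 to 14.5 CPM, median 4.66 CPM, n = 11, 1.94, limma, adjusted p = 1.31e-07) and IL13 (mean 4.14 ± 2.62 CPM, n = 9, 1.56, limma, adjusted p = 0.000624) also raised it.

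Cacna1d and Cacna1f, both L-type pores, were lower in some LPS combinations and higher with IL4. Cacna1d had an untreated median of 2.77 CPM (0 to 32.6 CPM) and one of 15.4 CPM under TGFb (2.38 to 33.1 CPM, n = 8, 2.02, limma, adjusted p = 0.00984), with untreated plate means from 1.56 to 19.1 CPM. It was higher in 4 and lower in 4 conditions of 24 h, and 1 of the 8 calls remained with plate as a term. Cacna1f rose in the 3 IL4 cultures of 72 h, which held 9.40, 34 and 53.8 CPM beside an untreated mean of 1.17 ± 2.31 CPM (4.09, limma, adjusted p = 0.000134). In the LPS_lo + IL13 group of 72 h its mean of 32 CPM came largely from a culture of 120 CPM (2.97, limma, adjusted p = 0.000424).

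Cacnb3 (chr15:98628436-98644536), a beta subunit that brings calcium channel pores to the membrane, had the largest rises at 4 h. Untreated cultures of 24 h held 0 to 10.2 CPM with a median of 0.216 CPM, and as 2 of them were above 5 CPM, Cacnb3 passed the filter at 4 h through stimulated groups where it was high. LPS_hi at 4 h gave 0.689 to 55.9 CPM (median 20.9 CPM, n = 7, 3.03, limma, adjusted p = 9.4e-09). LPS_hi with norepinephrine gave 81 to 275 CPM (median 142 CPM, n = 8, 6.35 ± 0.42, limma, adjusted p = 7.44e-26), all above both other groups, and exceeded LPS_hi alone by 3.32 ± 0.56 (limma, adjusted p = 1.86e-05). LPS_hi with nicotine gave a median of 37 CPM (21.2 to 43.6 CPM, 4.33, limma, adjusted p = 7.55e-16) and with ATP 15.3 CPM (8.39 to 29.2 CPM, 3.23, limma, adjusted p = 2.06e-08). Norepinephrine alone averaged 1.40 CPM and nicotine alone 3.17 CPM, and neither was called. At 24 h LPS_hi averaged 2.88 CPM, and Valproic Acid was the condition called, with 1.92 to 23.7 CPM (median 18.7 CPM, n = 6, 2.95, limma, adjusted p = 3.03e-08). Cacnb1, another beta subunit, had an untreated median of 1.22 CPM (0 to 25.8 CPM) and was lower with LPS_hi at 4 h (0 to 2.18 CPM, -1.24, limma, adjusted p = 0.0287) and at 72 h (-1.22, limma, adjusted p = 0.0275) and with LPS_hi + nicotine at 4 h. All 3 Cacnb1 calls were lost with plate or library pool as a term.

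**Figure D3:**
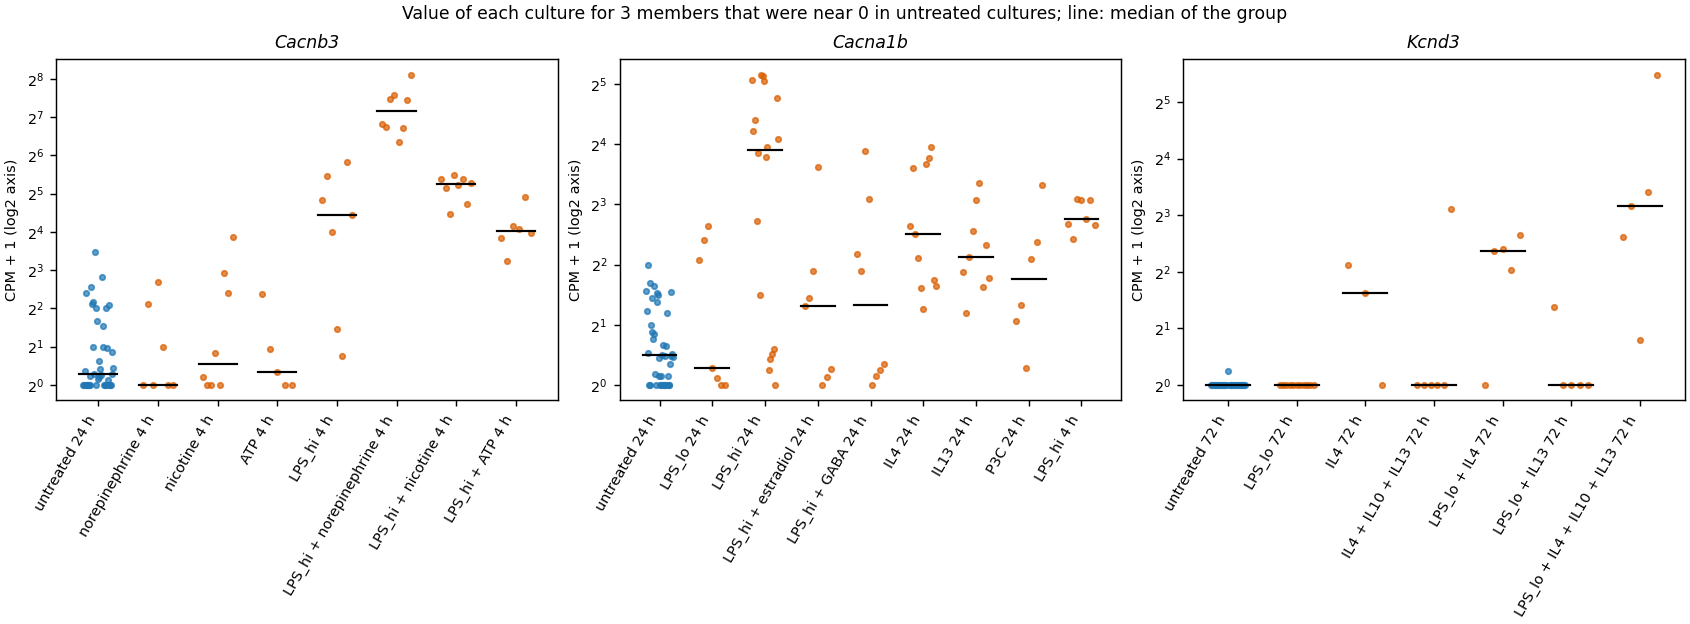
CPM + 1 on a log2 axis of single cultures (points) and group medians (lines) for Cacnb3 at 4 h, Cacna1b at 24 h with LPS_hi at 4 h, and Kcnd3 at 72 h. Cacnb3 cultures with LPS_hi and norepinephrine lie at 81 to 275 CPM, above the 0.689 to 55.9 CPM of LPS_hi alone, Cacna1b is highest under LPS_hi at 24 h, and Kcnd3 is above 0 mainly in groups with IL4.

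Of the sodium channel genes, Scn1a, Scn2b and Scn3a were low, and the epithelial sodium channel subunits stayed below 5 CPM in every group. Scn3a, a pore subunit of developing brain, had an untreated median of 2.47 CPM (0 to 13 CPM) and 0 to 0.728 CPM under LPS_hi at 4 h (n = 7, -1.47, limma, adjusted p = 0.00182) and was lower in 3 conditions of 24 h and 4 of 72 h, of which 1 and 2 remained with plate as a term. Scn1a (10.1 ± 8.49 CPM) and Scn2b (8.15 ± 7.34 CPM) were called in no condition of 24 h.

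Trpv4, an osmotically and thermally gated cation channel, was low and fell with LPS_hi at 4 h, 24 h and 72 h. Untreated cultures of 24 h had a median of 7.58 CPM (1.43 to 33.1 CPM), P3C a mean of 1.28 ± 1.36 CPM (-2.06, limma, adjusted p = 4.6e-05) and LPS_hi one of 3.40 ± 3.20 CPM (-1.32, limma, adjusted p = 3.82e-05). It was lower in 10 conditions of 24 h, all 10 also with plate as a term. At 72 h LPS_hi averaged 0.725 ± 1.13 CPM beside an untreated median of 9.64 CPM (0 to 24.4 CPM, -2.30, limma, adjusted p = 0.000152). Nicotine at 4 h was higher, 8.60 to 55.5 CPM with a median of 23.2 CPM (1.52, limma, adjusted p = 0.0193), a call lost with plate as a term.

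Trpm2, a calcium-permeable channel opened by ADP-ribose and oxidative stress, had an untreated median of 5.33 CPM at 24 h (0.908 to 12.7 CPM). It rose with IFNg (8.04 to 22.3 CPM, median 13.1 CPM, n = 9, 1.35, limma, adjusted p = 0.00383), TNFa (18.2 CPM, 1.40, limma, adjusted p = 0.0175) and nicotine (18.9 ± 11.3 CPM, 1.61, limma, adjusted p = 0.00471), each also with plate as a term. At 72 h it rose from 3.88 ± 3.96 CPM to 21.9 CPM with LPS_lo + TGFb (2.50, limma, adjusted p = 3.59e-05), 22.4 CPM with TNFa + IFNg (2.24, limma, adjusted p = 0.000233) and 15.6 CPM with TNFa + PGE2 (2.15, limma, adjusted p = 0.00064), and with LPS_hi at 4 h it fell (-1.45, limma, adjusted p = 0.00393). LPS_lo with IL4, IL10 and IL13 left it at 0.677 CPM, below LPS_lo alone (-2.28, limma, adjusted p = 0.0237), a call lost with plate or pool as a term. Trpm7, a channel with its own kinase domain, had an untreated median of 21.6 CPM (6.04 to 38.2 CPM) and one of 6.71 CPM under P3C (0.833 to 18.6 CPM, -1.39, limma, adjusted p = 0.0022), and was lower in 3 conditions of 24 h and 2 of 4 h, of which 1 and 0 remained with plate as a term. Trpm4, a sodium-permeable channel opened by calcium, rose at 72 h with TNFa + P3C (1.22, limma, adjusted p = 0.0178) and TNFa + P3C + PGE2 (1.42, limma, adjusted p = 0.00597). Trpv2 had 12.9 to 52.6 CPM untreated at 24 h (median 32.8 CPM) and a single call, a fall under IL4 at 72 h to 11.1 CPM (-1.14, limma, adjusted p = 0.0487), which was lost with plate or pool as a term.

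The rows that are no channels moved too. Scnm1 fell from a median of 39.3 CPM (5.51 to 139 CPM) to one of 11 CPM under P3C at 24 h (1.31 to 19.4 CPM, -1.92, limma, adjusted p = 1.02e-06) and to 12.8 CPM under LPS_hi at 4 h (-2.18, limma, adjusted p = 0.00018). Kcnq1ot1 lies within the Kcnq1 gene and is read from its other strand. Salmon detected the library type by itself, and which type it found is not given in the sources used here, so that the values of the pair are uncertain. The 3 TNFa cultures of 72 h held 471, 551 and 943 CPM of Kcnq1ot1, all above the untreated group, which ran from 27.9 to 435 CPM with a median of 44.5 CPM (3.57, limma, adjusted p = 0.000208), and the change was 1.82 with plate as a term. At 24 h it was lower in 4 conditions, none of which remained with plate as a term, and LPS_lo with resveratrol exceeded LPS_lo alone, 81.2 beside 26.3 CPM (1.30, limma, adjusted p = 0.0325).

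TNFa at 72 h had 9 of 52 members higher (17.3%) beside 9.63% of all genes, with a median of 0.50 over members and -0.28 over all genes. Besides Kcnn4, Kcng2 and Kcnq1ot1 these were Cacna1e, Cacng4, Kcna2, Kcnk2, Kcnmb4 and Scn9a, most of them known from neurons. The calls of Cacng4 and Kcnk2 were lost with plate or library pool as a term, and those of Kcnmb4 and Scn9a with pool. Those of Cacna1e, Kcng2 and Kcnq1ot1 remained with either term. Untreated cultures of 72 h reached at most 3.60 CPM for Kcng2, 2.85 CPM for Kcna2, 2.34 CPM for Kcnmb4 and 2.75 CPM for Scn9a. These members passed the filter through stimulated cultures, and the member share and median are conditioned on that. The TNFa group has 3 cultures, with a depth of 1.98 to 2.36 M counts. Its neuronal marker sum was 9.75 to 184 CPM (median 10.6 CPM). Snap25, at a mean of 61.6 CPM, was the 1 marker of the 10 above 5 CPM, and 7 were at 0 in all 3 cultures. The microglial marker sum of the group was 6830 to 8300 CPM, and the part of either sum in these values was not tested.

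Many named members were seen in few cultures. There were 29 that exceeded 5 CPM in at most 30 of the 784 cultures yet had a group mean above 5 CPM, and in all 29 over 50% of the sum of the highest group came from 1 culture. They included Cacna1e, Cacna1g, Cacnb4, Cacng2, Cacng4, Hcn3, Kcna2, Kcnb2, Kcnc4, Kcnd2, Kcnd3, Kcng2, Kcnh3, Kcnh7, Kcnj3, Kcnj8, Kcnk3, Kcnmb1, Kcnmb4, Kcnq3, Kcnq5, Kcnt2, Kcnu1, Scn2a1, Scn8a, Scn9a and Trpm1. The extreme was Kcnj3, a G-protein-gated inward rectifier, with 1164 CPM in 1 IC culture of 72 h. Of the 50 higher calls at 72 h, 25 had over 50% of the group's sum in 1 culture. Of the 20 rises at 72 h in groups of at most 5 cultures, 4 remained in every fit that left out 1 replicate, and of the 7 falls 0 did.

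At the other end, 8 members exceeded 5 CPM in at least 700 cultures, among them Cacna1a, Kcnab2, Kcnn4, Kcnq1ot1, Scnm1, Trpm7 and Trpv2. The 101 members that reached 5 CPM in no group mean had a highest group mean of 4.50 CPM (Scn3b) and a highest single culture of 30.1 CPM (Cacna2d1), and 7 were at 0 in every culture, namely Kcna10, Kcnj11, Kcnk15, Kcnk16, Kcnk9, Kcnmb4os1 and Scn10a. By family, the named members were 5 of 15 inward rectifiers, 4 of 14 two-pore-domain channels, 6 of 12 ion-activated potassium channel genes, 15 of 40 voltage-gated potassium channel subunits, 2 of 13 potassium channel auxiliaries, 6 of 10 calcium channel pores, 6 of 16 calcium channel auxiliaries, 7 of 14 voltage-gated sodium channel genes, 0 of 3 epithelial sodium channel subunits, 4 of 8 TRPM, 2 of 6 TRPV and 1 of 4 HCN genes, 1 of 5 non-coding rows and Scnm1.

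In mice, LPS lowered Kcnj2 as it had in cultures, and few other members passed the test. Of 25 members tested among 9012 genes, 3 were lower (12%) beside 13.6% of all genes, and 1 was higher (4.0%) beside 8.79%, with a call at an adjusted p under 0.05 and no minimum change. Kcnj2 was at 164, 171, 147 and 199 CPM in the PBS mice and at 46.4, 42.2, 39.1 and 34.1 CPM in the LPS mice. The groups did not overlap, and the change was -2.05 ± 0.15 (SE, limma, adjusted p = 1.09e-07), between -2.12 and -1.97 when any mouse was left out. Scn3a was at 20.8, 16.4, 29.3 and 17.5 CPM after PBS and at 9.15, 10.6, 12.1 and 12.5 CPM after LPS. These groups did not overlap either (-0.84 ± 0.22, limma, adjusted p = 0.014), and the call was lost without PBS replicate 3 (-0.67).

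Kcnk13 was at 65.7, 137, 73.6 and 78.1 CPM in PBS mice and at 67.2, 54.4, 43.5 and 41.7 CPM in LPS mice. The highest LPS mouse lay just above the lowest PBS mouse, and the change of -0.73 ± 0.22 (limma, adjusted p = 0.03) was lost without PBS replicate 2 or LPS replicate 3 or 4 and with median-of-ratios scaling (-0.58), which moved the median of all genes by 0.149. Kcnh4, a slowly gating voltage-gated potassium channel of the brain, was at 0.196, 0.866, 0.594 and 0.725 CPM in PBS mice and at 15.7, 8.55, 15.4 and 16 CPM in LPS mice (3.20 ± 0.33, limma, adjusted p = 4.7e-06). It passed the filter only through the LPS mice and so had to differ. In the same mice the 6 neutrophil markers summed to 66.1 to 131 CPM after PBS and 144 to 260 CPM after LPS. The 4 monocyte markers summed to 20.9 to 50.5 CPM and 62.4 to 126 CPM. Median sums of brain cell markers were lower after LPS, with overlapping ranges. They went from 109 to 64.1 CPM for neurons, from 1020 to 738 CPM for astrocytes and from 985 to 488 CPM for oligodendrocytes. The part of all these cells in the values was not tested.

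Other members that fell in LPS cultures had no call in LPS mice. Trpv4 was at 9.22, 4.47, 6.53 and 5.36 CPM after PBS and at 13.5, 14.7, 15.2 and 6.78 CPM after LPS (0.86, limma, adjusted p = 0.0512), which passed the threshold under median-of-ratios scaling, a pseudocount of 5 and a fit without the trend. The epithelial and ependymal marker sum, mostly Ttr, had medians of 68.2 CPM after PBS (41.6 to 152 CPM) and 174 CPM after LPS (80.0 to 224 CPM), and its part in the Trpv4 values was not tested. Cacna1a differed by 0.19 (limma, adjusted p = 0.595), Kcnk6 by 0.26 (limma, adjusted p = 0.294), Kcnj10 by -0.50 (limma, adjusted p = 0.331), Trpm7 by -0.48 (limma, adjusted p = 0.0869) and Kcnab2 by -0.92 (limma, adjusted p = 0.106). Cacnb3, the leading rise of cultures, differed by -0.16 (limma, adjusted p = 0.809). Whether the change in mice differed from that in cultures was not tested, since the tables were normalised separately.

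In aged mice, 28 members were tested among 9632 genes with the library series as a term, and 3 were higher (10.7%) beside 6.95% of all genes and 2 lower (7.14%) beside 3.81%. Kcnj9, a G-protein-gated inward rectifier, ranged from 2.63 to 11 CPM at 2 months (median 7.11 CPM) and from 10.0 to 23 CPM at 22 months (median 15.7 CPM), with an overlap at 10.0 to 11 CPM (1.14 ± 0.18, limma, adjusted p = 5.96e-05). Its means went from 8.84 to 12.1 CPM in library series 1 and from 5.69 to 17.5 CPM in series 2. Kcnip3, a calcium-binding partner of Kv4 channels also known as a transcriptional repressor, went from 46.1 ± 12.4 to 76.0 ± 29.3 CPM (0.58 ± 0.12, limma, adjusted p = 0.00137), with means of 35.3 and 36.5 CPM in series 1 and of 52.2 and 93.6 CPM in series 2. The rise of Kcnip3 thus lay in series 2.

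Trpv4 was higher in aged mice, with a median of 15.3 CPM (1.27 to 40.1 CPM) beside 7.97 CPM (1.67 to 14.6 CPM, 0.75 ± 0.24, limma, adjusted p = 0.037), and the call was lost when all genes were kept or the series term was dropped. Kcnk6 fell from a median of 152 CPM (124 to 234 CPM) to 115 CPM (97.6 to 165 CPM, -0.41 ± 0.10, limma, adjusted p = 0.00817), with lower means in both series. Kcnk12, a two-pore-domain subunit related to Kcnk13, fell from 9.49 CPM (3.91 to 20.5 CPM) to 6.54 CPM (1.35 to 10.8 CPM, -0.67 ± 0.20, limma, adjusted p = 0.0303). Kcnj2, at medians of 99.8 and 91.7 CPM, differed by -0.03 (limma, adjusted p = 0.924). The neutrophil marker sum had medians of 522 CPM at 2 months and 1110 CPM at 22 months and the monocyte sum 65.5 and 151 CPM. The 5 lymphocyte markers had medians of 5.72 and 35.7 CPM and the 4 epithelial and ependymal markers, mostly Ttr, of 66 and 282 CPM. The part of these sums in the changes with age was not tested.

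**Figure D4:**
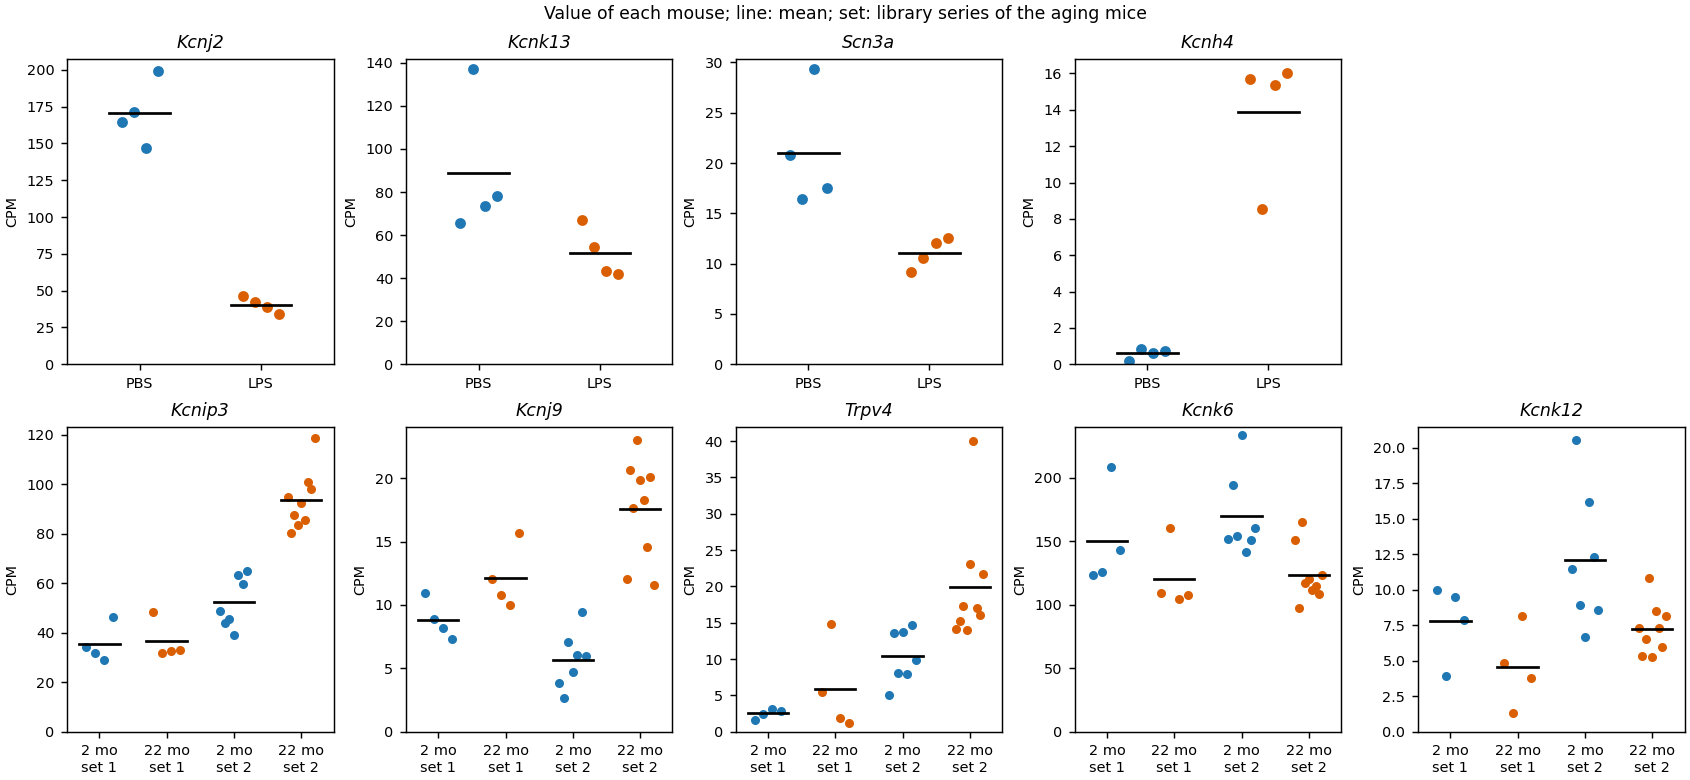
CPM of each mouse (points) with group means (lines) for Kcnj2, Kcnk13, Scn3a and Kcnh4 after PBS or LPS, and for Kcnip3, Kcnj9, Trpv4, Kcnk6 and Kcnk12 at 2 and 22 months in library series 1 and 2 (set 1 and set 2). The PBS and LPS mice do not overlap for Kcnj2 and Scn3a, while Kcnh4 passed the filter only through the LPS mice and so had to differ. Kcnip3 is higher with age in series 2 and not in series 1.

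The levels of named members differed between the culture and mouse tables, which were normalised separately, so that they are given side by side with no test, untreated cultures of 24 h first and naive mice of 2 months second. Kcnd1 was at 2.48 and 311 CPM, Kcnip3 at 0.112 and 46.1 CPM, Kcnk6 at 15.6 and 163 CPM, Kcnj10 at 11.4 and 72.4 CPM and Trpm2 at 5.55 and 56.6 CPM. Kcnk12 was listed at 0 in cultures and was at 10.5 CPM in mice. The order was opposite for Kcnn4 (107 and 4.74 CPM), Kcnab2 (127 and 22.8 CPM) and Cacna1a (86.7 and 21.5 CPM), while Trpv2 (31.5 and 32.6 CPM), Scnm1 (44.5 and 33.1 CPM) and Trpm7 (21.1 and 35.9 CPM) were close. The mouse isolates had higher median sums than the cultures for every marker list but perivascular macrophages, at 55.7 CPM in mice and 261 CPM in cultures. The sums in mice and cultures were 752 and 18.6 CPM for astrocytes, 591 and 63.3 CPM for oligodendrocytes and 84.8 and 9.75 CPM for neurons. They were 576 and 3.89 CPM for neutrophils and 95.3 and 0.704 CPM for monocytes. The part of these cells in the levels was not tested. Cacnb2, Kcna1, Kcnh4, Kcnip3, Kcnj9, Kcnk12 and Kcnma1 exceeded 5 CPM in a mouse group and in no culture group.

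**Figure D5:**
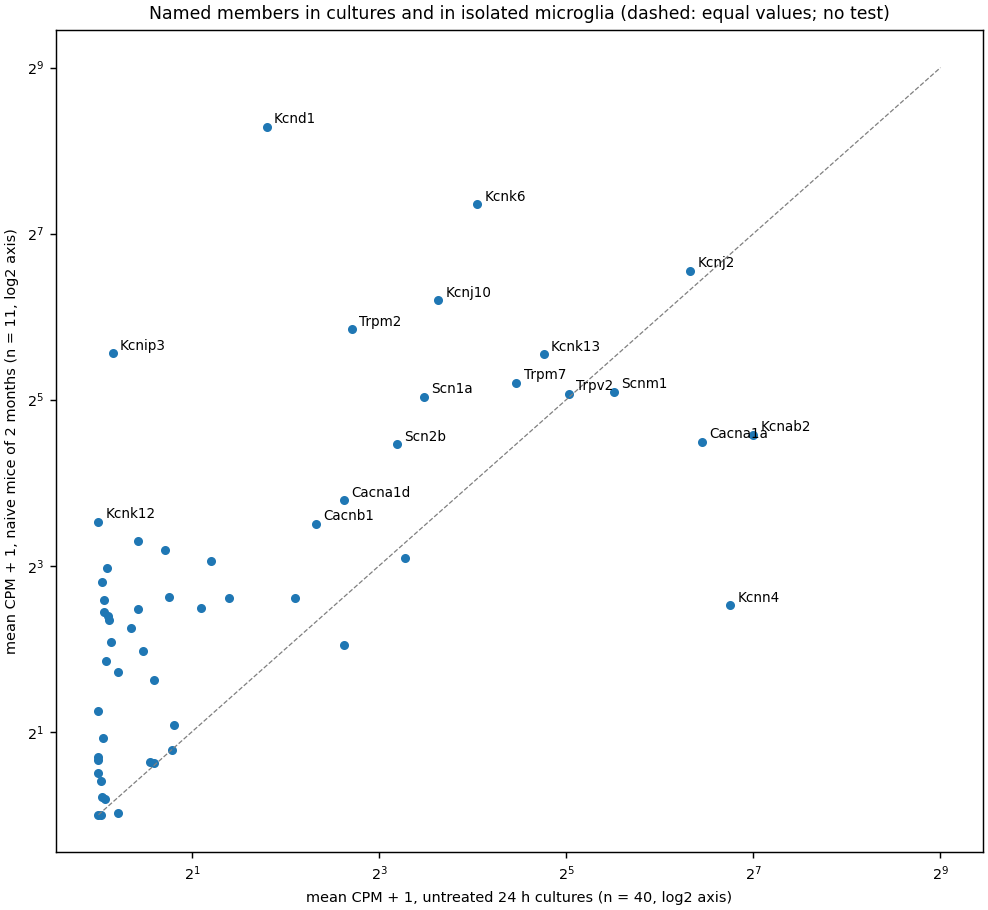
Mean CPM + 1 of 55 named members in untreated cultures of 24 h (horizontal axis) and naive mice of 2 months (vertical axis), both on log2 axes, with no test. Kcnd1, Kcnip3 and Kcnk6 lie on the mouse side and Kcnn4, Kcnab2 and Cacna1a on the culture side.

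A list of 64 other ion transport genes (chloride and proton channels, calcium release and store-operated channels, pumps and exchangers) is given by its counts, beside the shares over all genes. At 24 h, 51 were tested, with 178 of 2244 tests lower (7.93% beside 4.48%) and 55 higher (2.45% beside 2.04%). At 72 h 109 of 2142 were lower (5.09% beside 2.44%) and 62 higher (2.89% beside 2.31%), and at 4 h 47 of 450 were lower (10.4% beside 12.2%) and 19 higher (4.22% beside 3.53%). Agents added to LPS gave 17 higher (1.76% beside 0.612%) and 6 lower (0.621% beside 0.508%) of 966, and the LPS doses 0 higher (beside 0.321%) and 2 lower (1.96% beside 1.04%) of 102. In LPS mice 4 of 46 were higher (8.70% beside 8.79%) and 7 lower (15.2% beside 13.6%), and in aged mice 8 of 50 were higher (16% beside 6.95%) and 1 lower (2% beside 3.81%). Under LPS_hi at 24 h, Lrrc8c, a volume-regulated anion channel subunit, went from 20.2 to 156 CPM (3.17, limma, adjusted p = 1.2e-30) and Slc9a9, an endosomal sodium/proton exchanger, from 53.3 to 5.34 CPM (-3.56, limma, adjusted p = 2.59e-31). In LPS mice Tpcn1, an endolysosomal cation channel, went from 83.6 to 27 CPM (-1.60, limma, adjusted p = 2.93e-05).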

How the data were processed

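The authors made 3′-end libraries from pooled, barcoded RNA with T7 amplification, quantified them with Salmon 0.7.1 against an Ensembl mouse annotation (the submitters' notes name mm8), and deposited 1 table of cultures and 1 of mice, normalised separately, in CPM. Since tags come from 3′ ends, CPM was not divided by gene length. The values give whole reads for 72.4 to 90.0% of low values in cultures and 81.4 to 89.5% in mice, within 0.1 reads, so counts were not recovered and no count test was run. Genes above 5 CPM in at least 4 cultures, in at least 4 of the 8 PBS and LPS mice, or in at least 11 of the 24 naive mice were fitted on log2(CPM + 1) with limma 3.58.1 (trend, R 4.3.3), 1 fit per time point over all its groups, with library series as a term for age. P-values were adjusted over all genes of a fit by Benjamini-Hochberg. Scripts were tested on simulated data. Tables and plots used Python 3.11.15, pandas 2.3.3 and matplotlib 3.10.9. Promoter windows and positions are from RefSeq on GRCm38.p6, matched by symbol (159 members), and no coordinates come from the deposited files.

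The members, the marker lists, the list of other ion transport genes and the tests were chosen with earlier results of these data known. Named are the members with a group mean above 5 CPM, with values per sample for those called in at least 3 culture conditions or in mice. Kcna3, Trpv2, Scn1a, Scn2b and members singled out for 1 high culture, or for their level in mice, were chosen after their values were seen, as were the genes named from the ion transport list. A few members enter the counts but are not reported here by name. A culture labelled LPS_hi at 0.00001 µg/µl entered no test. Alternatives were the pseudocount, the filter, plate or library pool as a term, median-of-ratios scaling, the minimum change, the trend, the library series and leaving out replicates.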

Additional observations from a re-analysis of the deposited data

Results flagged for a closer look

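Single samples that stood far from their group of 4 to 10 were looked for in 203 groups with a call, and 37 had one. A chance rate of about 1 in 20 would hold for normally distributed values. It need not hold here, since many values were low CPM and the groups were chosen for having a call. The count of 37 is therefore not read as an excess over chance. Among the inward rectifiers, the sample apart was at 80.7 CPM for Kcnj2 under IFNa at 24 h, 38.5 CPM under LPS_hi + norepinephrine at 4 h, 40 CPM under LPS_lo + CCL2 at 24 h and 52.3 CPM under P3C + PGE2 at 72 h. For Kcnj10 it was at 14.4 CPM under GMCSF, 12.4 CPM under LPS_hi + GABA and 35.3 CPM under P3C at 24 h and at 8.04 CPM under LPS_hi + ATP at 4 h. Kcnk13 had 21.7 CPM under LPS_lo at 24 h, and Kcnn4 had 43.5 CPM under P3C at 24 h and 102 CPM under s100B at 72 h.

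Among the voltage-gated potassium channel genes, Kcnd1 had 54.4 CPM under LPS_lo + TGFb and 62.8 CPM under TNFa + P3C at 72 h, Kcnd3 43.8 CPM under LPS_lo + IL4 + IL10 + IL13, Kcng2 14 CPM under LPS_lo + IL4 at 72 h, and Kcnh4 a low value of 8.55 CPM in an LPS mouse.

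Among the calcium channel genes, Cacna1a had 72.7 CPM under P3C at 24 h and Cacna1b 11.3 CPM under LPS_hi + estradiol at 24 h. Cacna1d had 40.2 CPM under ATP and 1.53 CPM under LPS_hi + GABA at 24 h. Cacna1f had 0.647 CPM under LPS_hi + GABA, 1.07 CPM under LPS_hi + estradiol and 6.82 CPM under LPS_lo + resveratrol at 24 h and 120 CPM under LPS_lo + IL13 at 72 h. Cacnb1 had 1.79 CPM under LPS_hi + nicotine and 2.18 CPM under LPS_hi at 4 h, and Cacnb3 61.0 CPM under TNFa + PGE2 at 72 h.

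Among the sodium and TRP channel genes and Scnm1, Scn3a had 3.68 CPM under GABA and 4.86 CPM under LPS_lo + eotaxin at 72 h and 1.59 CPM under LPS_hi + GABA at 24 h. Scnm1 had 41.3 CPM under LPS_hi at 4 h. Trpm2 had 6.66 CPM under LPS_hi at 4 h and 43.8 CPM under nicotine at 24 h. Trpv4 had 11.2 CPM under IC and 4.33 CPM under LPS_lo + IFNg at 72 h, 11.6 CPM under LPS_hi at 4 h and 12.7 CPM under LPS_lo at 24 h.

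The culture labelled LPS_hi at 0.00001 µg/µl for 72 h, which entered no comparison, had members above the range of the untreated cultures. Kcnab2 was at 161 CPM, where untreated cultures of 72 h reached 148 CPM, LPS_hi cultures 145 CPM and LPS_lo cultures 181 CPM. Kcnh7 was at 5.50 CPM, where untreated cultures reached 4.33 CPM, LPS_hi cultures 22.7 CPM and LPS_lo cultures 10.9 CPM. Kcnmb4 was at 4.17 CPM, where untreated cultures reached 2.34 CPM, LPS_hi cultures 2.09 CPM and LPS_lo cultures 3.88 CPM.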

How the results depend on the processing

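No paired analysis was possible because the labels carry no replicate numbers. Of 122 member calls at 24 h, 67 were left with a pseudocount of 5, and the 9 calls of agents added to LPS became 14 with library pool as a term. In LPS mice the 4 calls became 2 with a minimum change of 1 and 2 to 5 when 1 mouse was left out. In aged mice the 5 calls became 1 with a minimum change of 1, 1 without the series term and 0 in series 1 alone. Library pool as a term turned the 50 higher and 32 lower calls at 72 h into 32 and 35. Median-of-ratios scaling turned 1 higher and 3 lower calls in LPS mice into 2 and 2, and 6 and 3 for agents added to LPS into 6 and 5. No value changed sign with a call. Of the 268 called values, 102 were kept under every alternative run for them and 153 with a pseudocount of 5. Plate and pool were terms for the culture calls alone. With plate 195 of these were kept and 64 were not, and with pool 166 were kept and 93 were not. Leaving out 1 replicate gave 43 to 45 calls at 4 h, 78 to 87 at 72 h and 8 to 10 for agents added to LPS. The causes were not tested.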
